A study of Mus musculus with 2 samples.

Results

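Imprinted genes, whose maternal and paternal copies are not used equally, were examined in the adult mouse pancreas of offspring whose mothers had briefly eaten too little threonine, an amino acid that mammals cannot make. A list of 32 imprinted genes was matched to the probe sets of the array by the gene symbol of the platform annotation, and 30 of the 32 had a probe set annotated to them alone, out of 18193 genes read in that way. Each gene was represented by its brightest probe set, by mean log2 signal, and the other probe sets served as checks. 1 array was hybridised with RNA pooled from male threonine-deficient offspring and 1 with RNA pooled from male control offspring. In both groups the dams were C57BL/6J females, the offspring were weaned at 3 weeks and received control diet until whole pancreas was taken at 10 weeks. What set the groups apart was the food of the pregnant dams, threonine-deficient or control, on embryonic days 12.5 to 14.5. The strain of the sires and the number of animals in a pool are not given in the sources used here. With 1 pool and 1 array per group, no difference has a replicate check, no p-value can be given, and every ratio compares these pools. Precision is limited by the number of arrays.

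Imprinting marks DNA in the egg or the sperm by methylation of cytosines that are followed by guanine (CpG sites), and the marks persist in the body after fertilisation while most other methylation is reset. The marks lie at control regions that serve clusters of neighbouring genes, so that in 1 cluster some genes are expressed from the maternal copy and others from the paternal copy. Many paternally expressed genes promote fetal growth and many maternally expressed ones restrain it, and a large share of them is turned down after birth. The probe sets read the RNA of both copies together, so none of the values shows which copy was expressed, and none measures methylation.

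The deposited values were MAS5 signals on a linear scale, scaled by array, and the median signals were 184 in the threonine-deficient and 165 in the control pool. A signal was counted as above background when it exceeded a floor of 264.9, the higher of the arrays' 60th percentiles, because detection calls were not used here. The floor lay close to the 95th percentiles of 80 probe sets for olfactory and vomeronasal receptors, genes a pancreas is not known to use, which were 268 in the threonine-deficient and 264 in the control pool. Of these receptor probe sets 10.0% exceeded the floor on at least 1 array. All 7 acinar enzyme markers with a probe set were above the floor on both arrays. In whole tissue, fewer cells of a type and less RNA per cell cannot be told apart.

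The windows around the transcription starts of 3 genes are given with their CpG pairs, and were not matched to imprint control regions. They are those of Peg3, which had the ratio between pools farthest from 0 among members above the floor on both arrays, Igf2r, which had the one nearest to 0, and Meg3, which had the most probe sets. Each runs from 250 bases before to 50 bases after an annotated start, 5′ to 3′, from RefSeq's table of build GRCm38.p6, with CpG pairs in capitals. Where a gene has several annotated starts, the window listed first is given.
Peg3, GRCm38.p6, chr7:6730370-6730669, minus strand: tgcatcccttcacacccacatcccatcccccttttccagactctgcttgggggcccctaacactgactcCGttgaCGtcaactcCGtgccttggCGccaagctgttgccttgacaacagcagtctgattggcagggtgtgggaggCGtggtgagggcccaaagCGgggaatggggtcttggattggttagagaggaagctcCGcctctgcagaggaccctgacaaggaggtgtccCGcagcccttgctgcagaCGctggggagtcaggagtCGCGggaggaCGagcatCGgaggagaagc
Igf2r, GRCm38.p6, chr17:12769657-12769956, minus strand: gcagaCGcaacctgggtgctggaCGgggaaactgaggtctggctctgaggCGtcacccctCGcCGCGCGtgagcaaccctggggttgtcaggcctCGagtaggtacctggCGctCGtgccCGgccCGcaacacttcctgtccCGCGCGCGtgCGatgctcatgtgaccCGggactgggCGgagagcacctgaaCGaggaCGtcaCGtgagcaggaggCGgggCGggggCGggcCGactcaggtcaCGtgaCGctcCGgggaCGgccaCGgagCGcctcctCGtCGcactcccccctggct
Meg3, GRCm38.p6, chr12:109540746-109541045, plus strand: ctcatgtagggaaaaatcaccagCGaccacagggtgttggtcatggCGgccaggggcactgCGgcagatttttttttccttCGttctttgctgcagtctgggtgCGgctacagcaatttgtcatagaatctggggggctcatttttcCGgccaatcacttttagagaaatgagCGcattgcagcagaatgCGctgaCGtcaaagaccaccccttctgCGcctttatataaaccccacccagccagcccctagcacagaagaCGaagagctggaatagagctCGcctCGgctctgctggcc
The Peg3 window holds 13 CpG pairs, the Igf2r window 34 and the Meg3 window 13, against a median of 7 in 32851 windows of the table. The Peg3 window shares 263 bases with that of Usp29, its neighbour on the opposite strand. Windows were found for 25 members, 40 in all with alternative starts, and their median was 14.5 CpG pairs, from 0 for Rian to 45 for a Grb10 start. The hexamer TGCCGC, the core of the motif bound by ZFP57, a zinc-finger protein that protects imprints, was searched on both strands with overlapping matches counted. It occurred in 10 of the 40 member windows, 25.0%, and in 11.6% of all windows. A Meg3 start carried it, while the Peg3 and Igf2r windows did not. A match is a stretch of letters and not a bound site. The hexamer holds a CpG pair, and member windows had a higher median of CpG pairs than all windows (14.5 against 7). The shares were not adjusted for this, and overlapping Mest windows that carry the hexamer were counted separately.

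The noncoding genes H19 and Meg3 each span a microRNA gene, whose mature products these arrays do not read. They are shown because a probe set annotated to H19 is annotated to Mir675 as well, and because Meg3 and Mir770 overlap in RefSeq (GRCm38.p6). The Meg3 span also holds mmu-miR-1906, which is not shown. Seeds, bases 2 to 8, are in capitals, and the 4 seeds differ from each other.
mmu-miR-675-3p, chr7:142577078-142577099, minus strand: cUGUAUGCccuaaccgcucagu
mmu-miR-675-5p, chr7:142577112-142577133, minus strand: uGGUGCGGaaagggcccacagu
mmu-miR-770-5p, chr12:109563710-109563731, plus strand: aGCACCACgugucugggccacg
mmu-miR-770-3p, chr12:109563744-109563765, plus strand: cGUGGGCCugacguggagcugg

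Of the 30 members with a probe set of their own, 16 exceeded the floor on 1 array or both, 53.3%, against 59.1% of all 18193 genes. 14 were above it on both arrays, and Impact and Magel2 only in the threonine-deficient pool. 8 of 13 maternally expressed members with a probe set were above the floor, namely Dcn, Cd81, Grb10, Meg3, Igf2r, Kcnq1, Rian and Slc22a18. So were 7 of 16 paternally expressed members, Plagl1, Peg3, Rasgrf1, Sgce, Ndn, Impact and Magel2. Gnas, whose transcripts come from the maternal, the paternal or both copies depending on the start site, was above it as well. The member nearest to the floor from above was Magel2, at 297 in the threonine-deficient and 219 in the control pool. Just below it lay Cdkn1c, at 258 and 244, and Mest, at 232 and 236, in the same order of pools. Zrsr1 was not analysed here, and H19 had only a probe set shared in name with Mir675. Snrpn is counted as below the floor by the 1 probe set annotated to it alone. The brightest probe set annotated to both Snurf and Snrpn exceeded the floor, at 4013 in the threonine-deficient and 4114 in the control pool.

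**Figure D1:**
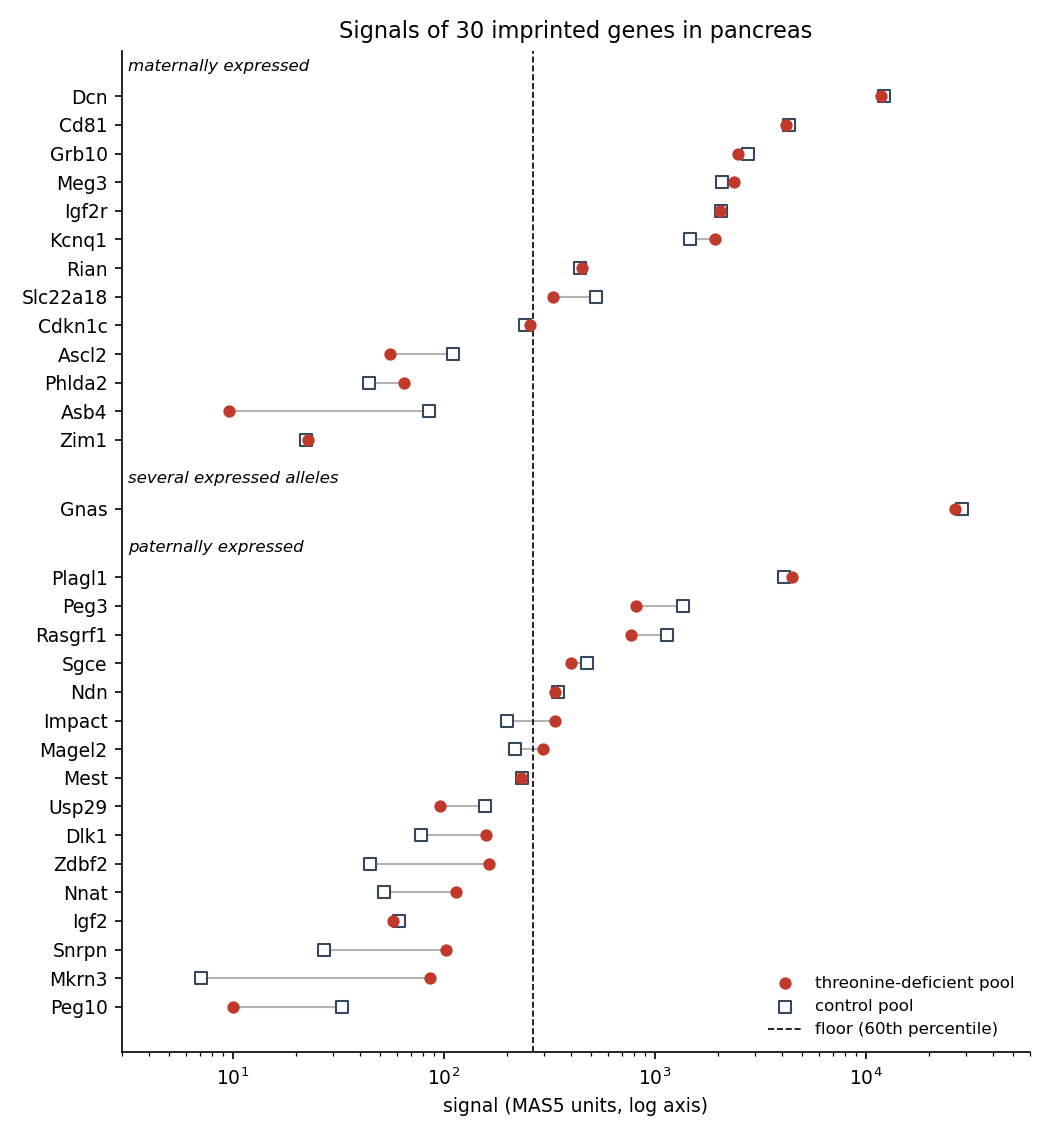
Signal of the representative probe set of 30 imprinted genes (horizontal log axis, MAS5 units) in the threonine-deficient pool (filled circles) and the control pool (open squares), 1 array each, with the floor of 264.9 as a dashed line. The genes are grouped by expressed copy, and 14 of the 30 lie left of the line on both arrays. Among these 14, Snrpn is drawn by the probe set annotated to it alone. Distances between different genes are not comparable, since each probe set has its own response.

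No member differed 2-fold between the pools. Among all 10758 genes above the floor, 1.28% passed 2-fold as higher in the threonine-deficient pool and 0.874% as lower. At 1.5-fold, 2 of the 16 members passed, Peg3 and Slc22a18, both lower in the threonine-deficient pool in their brightest probe set and higher in their other probe set above the floor. That is 12.5% of the members, against 12.6% of all genes that passed 1.5-fold in either direction, 7.2% as higher and 5.36% as lower. The median log2 ratio of threonine-deficient over control was −0.043 over the 16 members, with 6 positive and 10 negative, against 0.0011 over all genes. For each gene a local spread was computed from the log2 ratios of the 500 genes nearest in signal, as their median absolute deviation scaled to a standard deviation. It describes how widely genes of like signal scatter between these arrays and is not a replicate error. 4 members, 25.0%, exceeded 1 local spread (Peg3, Rasgrf1, Kcnq1 and Slc22a18), against 32.7% of all genes, and Peg3 alone exceeded 2, against 6.46% of all genes.

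**Figure D2:**
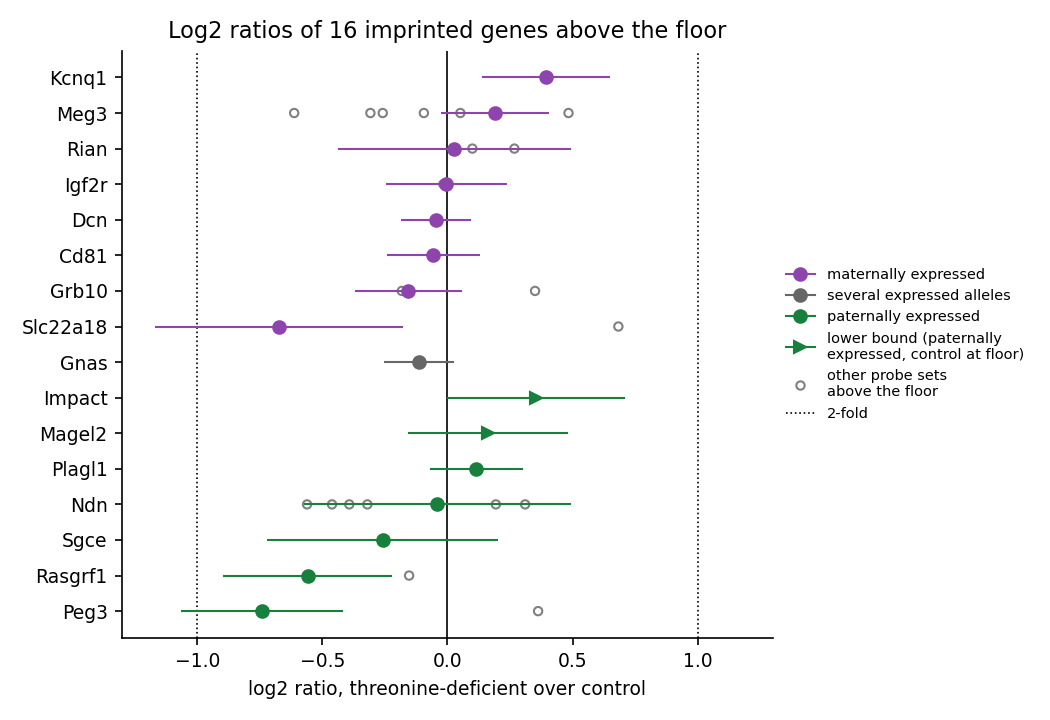
Log2 ratio of threonine-deficient over control for the 16 imprinted genes above the floor (horizontal axis), with bars of 1 local spread and open circles for other probe sets of the gene above the floor. Dotted lines mark 2-fold; no gene reaches them, and Peg3, Slc22a18, Meg3, Ndn and Grb10 have probe sets on both sides of 0.

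The insulin-like growth factor axis is the best known target of imprinting. Igf2, the paternally expressed fetal growth factor, was below the floor, at 57.6 in the threonine-deficient and 61.7 in the control pool. Igf2r, the maternally expressed receptor that carries IGF2 to lysosomes for breakdown, had 2050.4 in the threonine-deficient and 2057 in the control pool, a log2 ratio of −0.0046. Its other probe set gave 1219 in the threonine-deficient and 1233 in the control pool, so both readings were nearly level. Grb10, an adaptor that restrains insulin and IGF receptor signalling, had 2494 in the threonine-deficient and 2779 in the control pool (−0.16, local spread 0.21). Its dimmer probe sets gave −0.18 and 0.35, each with 1 array at the floor. Plagl1, a zinc-finger factor known to regulate other imprinted genes, had 4458 in the threonine-deficient and 4116 in the control pool (0.12). That reading came from a probe set ending in _x_at, a suffix that marks possible reading of other transcripts, while the other Plagl1 probe sets were below the floor on both arrays (at most 120.5). Dlk1, a Notch-like ligand of immature fat and endocrine cells, was below the floor, at 159 in the threonine-deficient and 78.3 in the control pool.

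The noncoding RNAs of the Dlk1 to Dio3 cluster, expressed from the maternal copy, were read by many probe sets. Meg3 had 2379 in the threonine-deficient and 2086 in the control pool in its brightest probe set (0.19, local spread 0.22), which ends in _x_at. The next 3 in signal went the other way, with 719 against 1099, 492 against 609 and 318 against 380.0 in the threonine-deficient against the control pool. Of the 8 Meg3 probe sets above the floor, 4 were positive and 4 negative, from −0.61 to 0.48, the last a bound. The gene thus had no settled direction. Rian had 454 in the threonine-deficient and 445 in the control pool (0.027). Its 3 probe sets above the floor were all positive, from 0.027 to 0.27, the last a bound. H19, the noncoding partner of Igf2, had no probe set of its own. A probe set annotated to both Mir675 and H19 had 321 in the threonine-deficient and 64.8 in the control pool. With the control signal at the floor, that probe set was at least 1.21-fold higher. It stands outside the member counts because of its double annotation.

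In the Peg3 domain, Peg3 itself, a paternally expressed zinc-finger gene tied to maternal behaviour and to stem cells of muscle and other tissues, had 819 in the threonine-deficient and 1369 in the control pool. This was 1.67-fold lower (−0.74, local spread 0.32). Its other probe set above the floor gave the opposite sign, with 679.7 in the threonine-deficient and 529 in the control pool (0.36). The remaining 3 probe sets of Peg3 were below the floor, and the direction of the gene is unsettled for that reason. Usp29, a ubiquitin protease that starts in the window shared with Peg3, was below the floor at 96.0 in the threonine-deficient and 157 in the control pool. The maternally expressed zinc-finger gene Zim1 was below it as well, at 22.8 and 22.3 in the same order.

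The Kcnq1 cluster gave 3 of its 6 members above the floor. Kcnq1, a voltage-gated potassium channel of epithelia, the pancreas included, had 1936 in the threonine-deficient and 1473 in the control pool. It was 1.31-fold higher (0.39, local spread 0.25), the highest ratio among members above the floor on both arrays, and was read by 1 probe set. Cd81, a tetraspanin of the cell surface, had 4185 in the threonine-deficient and 4353 in the control pool (−0.057). Slc22a18, a transporter of the organic cation family, had 330.4 in the threonine-deficient and 527 in the control pool (−0.67, local spread 0.50), but 425 in the threonine-deficient and 245 in the control pool in its second probe set (at least 1.61-fold higher). The 2 readings are of like size and opposite sign, so this gene has no direction either. The cell cycle inhibitor Cdkn1c lay just under the floor on both arrays. The placental growth regulators Phlda2 (64.9 in the threonine-deficient and 44.5 in the control pool) and Ascl2 (55.8 and 111 in the same order) lay far below it.

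Of the paternally expressed genes of the region lost in Prader-Willi syndrome, Ndn, which encodes necdin, a MAGE-family growth suppressor of neurons, had 338 in the threonine-deficient and 348 in the control pool in its brightest probe set (−0.041). 7 of its 8 probe sets passed the floor in 1 pool or both, and 5 of these were negative. The lowest was −0.56 and the highest 0.31, both bounds. All 7 lay within 1.5 times the floor in signal, where small shifts move a value across it. Magel2, a partner of ubiquitin ligases, was at least 1.12-fold higher, with the control pool at the floor. Mkrn3, a makorin that restrains puberty, was below the floor at 86.1 in the threonine-deficient and 7.07 in the control pool.

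Snrpn encodes a protein of the splicing machinery and shares its transcript with Snurf. The only probe set annotated to Snrpn alone was below the floor, at 103 in the threonine-deficient and 27.0 in the control pool. A further 6 probe sets are annotated to both Snurf and Snrpn, and 4 of these exceeded the floor in both pools. The brightest had 4013 in the threonine-deficient and 4114 in the control pool (−0.036), and the second had 1751 and 2076 in the same order (−0.25). The other two, both ending in _x_at, had larger differences, with 505 in the threonine-deficient against 1901 in the control pool (−1.91) and 584 in the threonine-deficient against 1052 in the control pool (−0.85). All 4 were negative, but the sizes ran from 1.03-fold to 3.76-fold for what the annotation gives as the same pair of genes. The transcript pair was thus above the floor in both pools, and the size of its difference varied with the probe set.

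**Figure D3:**
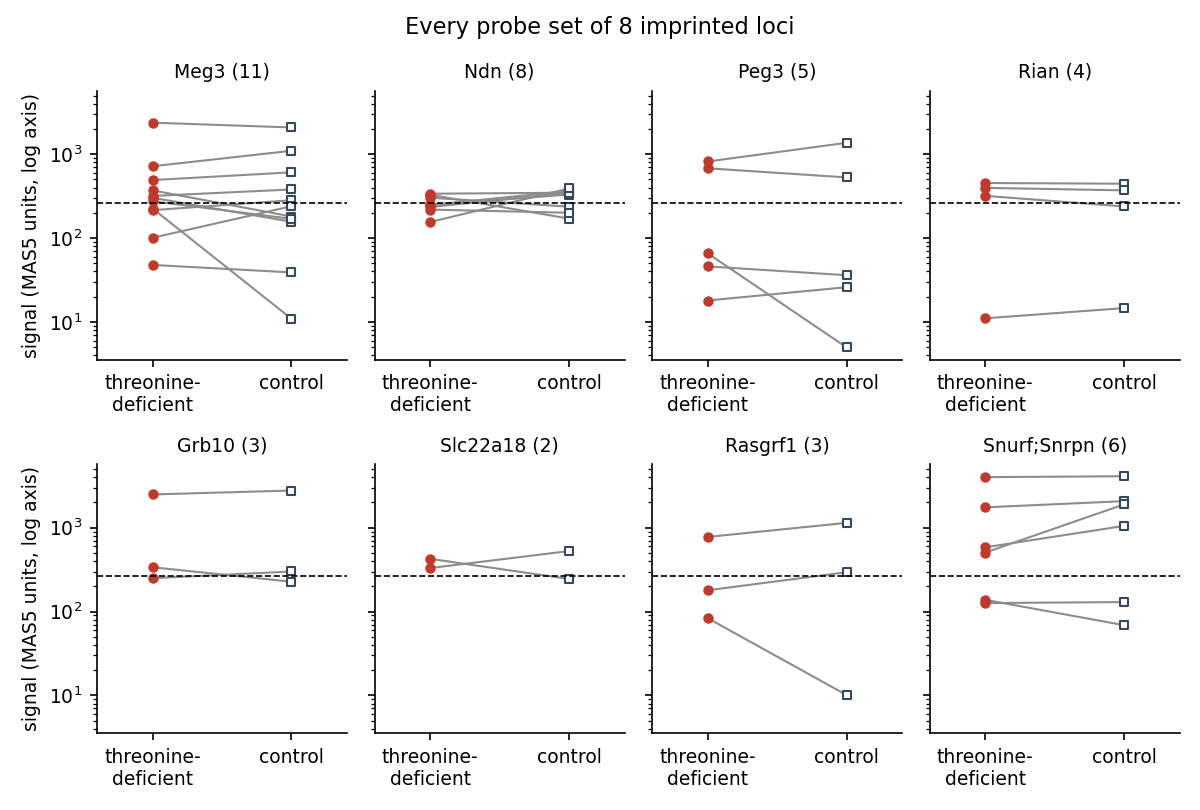
Signals of the probe sets of 8 imprinted loci (vertical log axis, MAS5 units) in the threonine-deficient pool (left, filled circles) and the control pool (right, open squares). Points are joined by probe set, with the number of probe sets in brackets and the floor of 264.9 dashed. The probe set annotated to Snrpn alone is not drawn. Lines cross in several panels, among them those of Meg3, Ndn and Slc22a18, and in the Snurf;Snrpn panel 1 line is far steeper than its neighbours.

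Gnas, the stimulatory G protein alpha subunit that couples hormone receptors to cyclic AMP, had 26509 in the threonine-deficient and 28701 in the control pool (−0.11, local spread 0.14). That reading came from a probe set ending in _s_at, a suffix that marks possible reading of other transcripts. Which of the Gnas transcripts it reads was not examined. The other 4 Gnas probe sets were below the floor, the highest at 132. Nnat, neuronatin, a membrane protein of neurons and beta cells, was below the floor at 114 in the threonine-deficient and 52.2 in the control pool. Of the Peg10 cluster, Sgce, a sarcoglycan, had 402 in the threonine-deficient and 481 in the control pool (−0.26, local spread 0.46). Peg10, a retrotransposon-derived placental gene, and Asb4, a subunit of a ubiquitin ligase, were below the floor. Mest, a hydrolase-like protein of growing fat, lay just under it.

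Of the remaining members, Dcn, the collagen-binding proteoglycan decorin, had 11818 in the threonine-deficient and 12193 in the control pool (−0.045, local spread 0.14). Rasgrf1, a Ras activator of neurons and beta cells, had 776 in the threonine-deficient and 1144 in the control pool, 1.47-fold lower (−0.56, local spread 0.34). Its second probe set had 179.7 in the threonine-deficient and 295 in the control pool, a bound of at least 1.11-fold lower, and the third was below the floor. Among members above the floor on both arrays with several probe sets above it, only Igf2r, Rian and Rasgrf1 had no sign conflict. Igf2r and Rian were nearly level in their brightest probe sets (−0.0046 and 0.027). The Rasgrf1 ratio of −0.56 came from a probe set ending in _s_at, a suffix that marks possible reading of other transcripts. It was −0.15 without probe sets of such suffixes, and −0.15 with the median over probe sets. Impact, an inhibitor of the amino acid-sensing kinase GCN2, had 338 in the threonine-deficient and 201 in the control pool, at least 1.28-fold higher, and its other probe sets were below the floor. The genes of GCN2 and of its activator GCN1, named here after their values were seen, had signals of 309 in the threonine-deficient and 282 in the control pool for Eif2ak4 and of 791 and 717, in the same order, for Gcn1. Zdbf2, a zinc-finger gene, was below the floor at 164 in the threonine-deficient and 44.7 in the control pool.

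Over the probe sets of all members, agreement was weak. 8 of the 16 members above the floor had further probe sets above it, 21 in all, of which 12 had the sign of the brightest and 9 the opposite. Across the array, 4251 genes had a further probe set above the floor, and in 52.1% of them the brightest 2 had the same sign. That share takes 1 pair per gene, while the 21 member probe sets include several of the same gene, so the measures are not alike. None of the 76 probe sets annotated to 1 member alone reached 2-fold.

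Maternally and paternally expressed members were then compared. The 8 maternally expressed members above the floor had a median log2 ratio of −0.025, with 3 positive and 5 negative, from −0.67 for Slc22a18 to 0.39 for Kcnq1. The 7 paternally expressed members had a median of −0.041, with 3 positive and 4 negative, from −0.74 for Peg3 to 0.35 for Impact, the last a bound. The medians differed by 0.016, maternal minus paternal. Members are not replicates, so this difference has no test, and its sign turned to −0.0012 where the floor was replaced by a pseudocount and to −0.0052 with the median over probe sets. Without Ascl2, Cd81 and Dcn, whose imprinting is known mainly from placenta, and without Grb10, whose expressed copy differs in neurons, the maternal median was 0.027 over 5 genes and the difference 0.068. With the floor at the 75th percentile the paternal median was −0.56 and the difference 0.52, over the 3 paternally expressed genes left, Peg3, Plagl1 and Rasgrf1.

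**Figure D4:**
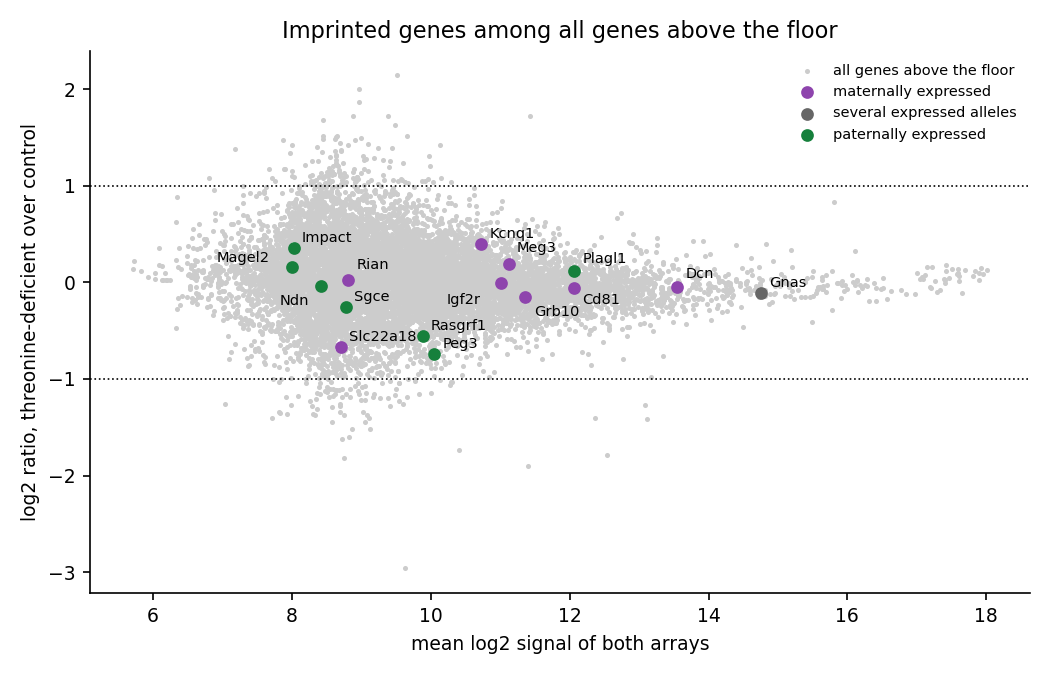
Log2 ratio of threonine-deficient over control (vertical axis) against the mean log2 signal of both arrays (horizontal axis) for the 10758 genes above the floor (grey), with the 16 imprinted genes coloured by expressed copy. All 16 lie between the dotted 2-fold lines, inside the grey cloud, with Peg3 and Slc22a18 nearest to the lower line.

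Further imprinted genes gave a like picture. Of 51 listed, 43 had a probe set and 23 were above the floor, 11 positive and 12 negative, with a median log2 ratio of −0.019 and none 2-fold apart. The largest was that of Gab1, a docking protein of growth factor receptors, with 1100.2 in the threonine-deficient and 699.7 in the control pool (0.65), but its other probe sets gave −0.74 and −0.45. Ppp1r9a, an actin-binding scaffold, had −0.44, Tspan32, a tetraspanin, 0.41 and the transcription factor gene Klf14 0.39. The list also holds Ins2, imprinted in yolk sac, with 81745 in the threonine-deficient and 93733 in the control pool (−0.20).

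Of 28 listed genes that set or protect imprints, 27 had a probe set and 18 were above the floor. Zfp57, the gene of the protein whose motif was searched above, was below it, at 15.4 in the threonine-deficient and 16.1 in the control pool. The 18 genes had a median of −0.13, with 7 positive and 11 negative and none 2-fold apart. Summarising each gene by the median of its probe sets made this median 0.0, and leaving out those with the suffixes _s_at, _x_at and _a_at made it −0.044. Smchd1, a chromatin protein that silences some imprinted clusters, had 445 in the threonine-deficient and 638 in the control pool (−0.52). The DNA methyltransferase gene Dnmt3a had 614 in the threonine-deficient and 841 in the control pool (−0.45), although 3 of its other probe sets were positive, from 0.093 to 0.72, the last a bound. Ctcf, which keeps the enhancers near H19 from acting on maternal Igf2, had −0.38, and Cbx5, a heterochromatin protein, 0.37. Of 22 signalling partners of the members, 18 were above the floor, with a median of −0.0074, 8 positive and 10 negative. Siah1a, a ubiquitin ligase that binds the Peg3 protein, was the only one of these past 2-fold, at 1254 in the threonine-deficient and 405 in the control pool, but its other probe sets gave 0.048 and, as a bound, 0.39.

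Some cell type markers differed between the pools, and some members known from those cells are set beside them. All 8 islet markers with a probe set were negative (median −0.34), with summed signals of 143616 in the threonine-deficient and 174817 in the control pool, and none was below the floor on both arrays. Of the members described above with neurons and beta cells, Rasgrf1 was negative and Nnat was below the floor on both arrays. Dlk1, described with endocrine cells, was below it as well. Among all 16 members above the floor, 10 were negative and 6 positive. The nerve markers went the other way from the islet markers, with 2 of 4 above the floor, both positive (median 1.23). The median includes a bound, since the control signal of Dbh, 252, was below the floor. Summed nerve signals were 2174 in the threonine-deficient and 1134 in the control pool, with Th and Tubb3 below the floor. All 6 adipocyte markers with a probe set were negative (median −1.02), with summed signals of 23073 in the threonine-deficient and 42481 in the control pool, and none below the floor on both arrays. Mest and Dlk1, described above with fat, were below the floor on both arrays. Fibroblast and stellate markers, cells in which Dcn is abundant, summed to 14471 in the threonine-deficient and 13754 in the control pool, 7 of 9 above the floor, 5 positive and 2 negative, with Col1a1 and Pdgfrb below it. No member is set beside the other marker sets. All 7 acinar markers with a probe set were positive (median 0.12). So were the 5 endothelial (0.36) and 2 duct markers (0.60) above the floor. The endothelial median is a bound, that of Kdr, whose control signal, 61.4, was below the floor. Immune markers above it were 3 positive and 2 negative, and the 2 smooth muscle markers above it were negative (−0.46). The part of cell makeup in the member values was not tested.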

How the data were processed

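The table holds linear signal intensities per probe set, deposited by the authors and which came from MAS5, of a version not stated there, per the submitters' processing notes. The mean intensity, leaving out the highest and lowest 2%, was 500.003 on both arrays, so ratios are relative to the rest of an array. Of 45101 probe sets, 64 controls were left out. 34945 carried 1 gene symbol, 932 several and 9160 none, and probe sets with several entered no gene value or count, except in an alternative; those of Mir675 with H19 and Snurf with Snrpn are given under both names. Symbols were updated through gene identifiers against RefSeq (GRCm38.p6), which matched 34741. Signals below the floor, a signal of 264.9, were raised to it before log2. A fold with 1 signal at the floor is a lower bound, written "at least". A log2 ratio with 1 signal at the floor is a bound too, and is not marked as such everywhere. The members, lists, roles and expressed copies were chosen with earlier results of these data known. All members were named, and of other lists the genes 2-fold apart or, where there was none, the 4 largest ratios; exceptions are stated, and Ins2 is one. Alternatives were 2 scalings, 5 treatments of low signals and 2 treatments of repeat probe sets. The procedure was run on simulated data with planted changes larger than any member ratio here, in genes well above the floor. Smaller changes and signals near the floor were not tested in that way. Python 3.11.15, numpy 2.4.6, pandas 2.3.3 and statsmodels 0.14.6 were used.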

Additional observations from a re-analysis of the deposited data

How the results depend on the processing

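9 alternatives were run: median centring, a loess trend taken out, the floor dropped, set at the 50th or 75th percentile or at the 95th percentile of receptor probe sets, or replaced by a pseudocount of its size, repeat probe sets summarised by their median, and only probe sets free of a sharing suffix (_s_at, _x_at, _a_at). Under these, no member reached 2-fold. Between 11 and 18 members were above the floor, and the median of the members ran from −0.045 to 0.0. The maternal minus paternal difference of medians, 0.016, was 0.13 with the loess trend removed, −0.0012 with the pseudocount and −0.0052 with the median over probe sets. With the floor at the 75th percentile it was 0.52 and the paternal median −0.56; 7 maternally and 3 paternally expressed genes then remained above the floor. The list of genes that set imprints had a median of −0.13 in the values reported of 0.0 with the median over probe sets and of −0.044 without a sharing suffix (the threshold for a shift was 0.1), and the cause was not tested. Of 135 single-gene values under these alternatives, 7 had the opposite sign, in 6 genes. Of these, Slc22a18 had 0.68 and Meg3 −0.31 without probe sets of a sharing suffix. Rasgrf1 kept its sign but was −0.15 in that setting and with the median over probe sets. Reading Snrpn and H19 through their doubly annotated probe sets, an alternative chosen after the data were seen, gave 18 members above the floor and a difference of 0.034. No paired analysis was possible because each group had 1 array.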
